A study of Mus musculus with 12 samples.

Results

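Chromatin remodellers that burn ATP to move, eject or exchange nucleosomes were followed as a set of 43 subunit genes, among them Ino80, the gene disrupted in these hearts. The set was chosen by symbol: subunits of the INO80, SRCAP and EP400, SWI/SNF, ISWI and CHD complexes, 43 of the 45664 rows of the deposited count table, and all 43 passed the filter on low counts. Bulk RNA came from whole mouse hearts at E13.5 and E14.5 (E for embryonic day), in 12 libraries of 1 embryo each. There were 4 groups of 3, wild-type (WT) and KO at each stage, KO being the embryos in which Ino80 was disrupted. The labels describe the KO as endothelial and name Tie2, an endothelial receptor gene whose promoter is widely used to direct recombination to endothelium and endocardium and is also active in blood cell lineages. The same treatment entry is attached to the WT libraries, and the sources used here do not say whether WT embryos carried any part of the cross, which strain the mice were or which part of Ino80 was removed. All 6 E13.5 embryos were of litter 1. At E14.5, WT replicates 7 and 8 and KO replicates 2 and 4 were of litter 2, and WT replicate 7.2 and KO replicate 1 of litter 3. Stage and litter therefore cannot be told apart, whereas each litter held both genotypes.

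The remodellers share a motor of the SNF2 type and differ in the subunits around it. INO80 slides nucleosomes and acts in transcription, replication and DNA repair, SRCAP and EP400 place the histone variant H2A.Z, SWI/SNF (also called BAF and PBAF) opens enhancers and promoters, ISWI spaces nucleosome arrays, and the CHD family includes the motors of the NuRD repressor. SWI/SNF and CHD genes are known for their roles in heart development, where Smarca4, Smarcd3, Pbrm1, Chd4 and Chd7 have been studied in particular.

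Libraries totalled 46556032 to 182545647 counts, and the 43 genes together took 0.286% to 0.354% of them. Cardiomyocyte marker genes were high throughout (6 of 6 measured, summed level 17011 to 22809 CPM, counts scaled to the TMM library size). Endothelial and endocardial markers (7 of 7) were read in every heart, at 886 to 920 CPM in KO against 933 to 1027 in WT at E13.5, and at 930 to 1008 against 792 to 989 at E14.5. Liver (4 of 5 measured, at most 3.57 CPM) and neural markers (5 of 5, 4.37 to 7.73 CPM) were near the floor. Y-linked genes were expressed in 1 of 3 WT and 2 of 3 KO embryos at E13.5, and in 1 of 3 of each at E14.5. In whole hearts, fewer cells of a type and less RNA per cell cannot be told apart.

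Per length, the levels of the subunits spanned a wide range, and the motor of NuRD led it. Counts were divided by the length of all annotated exons (CPM per kb), which understates genes with many unused exons. On that scale the level of Chd4 averaged 41.3 over the 12 libraries, followed by the SWI/SNF genes Smarca4 (26.8), Smarcc1 (24.4), Smarcc2 (22.5), Brd7 (21.97) and Pbrm1 (20.9). The SD over all 12 libraries was 2.77 for Smarca4, 2.41 for Smarcc1 and 2.23 for Smarcc2, so these neighbours in the order lay within each other's spread. Chd4 (4.11) stood clear of them. Ino80 itself lay at 4.59 ± 0.375 CPM per kb, rank 34 of 43, between Arid1b (4.83) and Chd8 (4.11) and within their spread. Within the INO80 complex, the subunits did not stand at one level: Mcrs1 (19.1), Yy1 (12.6) and Uchl5 (10.99) were high, and Ino80d (2.86), Nfrkb (2.38), Ino80e (2.22) and Actr5 (2.09) held the last 4 places. Embryos of a group differed little. The median within-group coefficient of variation of the members was 6.55% (lowest 3.07%, Yy1, highest 13.4%, Ep400), against 11.4% over all 20691 genes tested. This measure includes counting noise, and the genes tested reach lower counts than the members. No comparison was made with genes of like level.

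**Figure D1:**
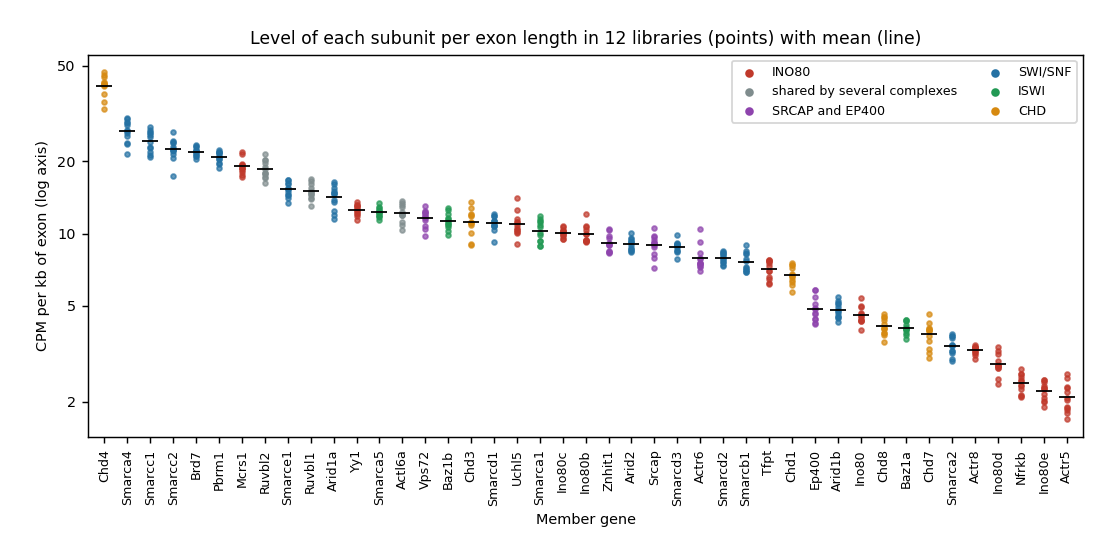
Level of each of the 43 subunits in CPM per kb of exon (log axis), 1 point per library and a line at the mean of 12, coloured by complex. Chd4 leads at 41.3 CPM per kb, Ino80 lies at rank 34 and Actr5 is lowest at 2.09.

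Whether hearts with the endothelial disruption hold other amounts of remodeller transcripts was asked first. No subunit gene passed the test between KO and WT hearts. In edgeR's quasi-likelihood test with Benjamini-Hochberg adjustment over all 20691 genes and a threshold of 0.05, 0 of 43 members passed at E13.5, where 0.106% of all genes did, and 0 at E14.5, where 0.222% did. Averaged over the stages, 0 passed, against 1.42% of all genes. At an unadjusted p under 0.05 the members counted 1 above 0 (2.33%, all genes 4.7%) and 5 below (11.6%, all genes 5.63%) at E13.5. At E14.5 they counted 0 above (all genes 5.42%) and 1 below (2.33%, all genes 4.17%), and averaged 2 above (4.65%, all genes 7.38%) and 4 below (9.3%, all genes 7.34%). DESeq2 called 0, 0 and 1, the last being Smarca1, where it called 1.53%, 1.7% and 4.58% of all genes. The averaged log2 fold changes ran from -0.21 to 0.16 with a median of -0.03 (all genes 0.00), with 16 above and 27 below 0. All 43 intervals (95%) lay within 0.5 of 0 on the log2 scale, and the bound farthest from 0 was 0.34 (Uchl5). The summed level of 6 macrophage markers (6 of 6 measured) was 9.08 to 39.5 CPM in KO against 61.1 to 68.0 in WT at E13.5, without overlap, and 12.9 to 66.7 against 46.3 to 53.8 at E14.5, where KO spanned the WT range. Of these markers 0 passed in edgeR at either stage or averaged (smallest adjusted p = 0.361, 0.959 and 0.320), and their part in the members' values was not tested. Of the 7 endothelial and endocardial markers, Pecam1 passed in edgeR as lower in KO at E13.5 (adjusted p = 0.00809). Pecam1 also passed as lower averaged over the stages (0.000785), and 0 of the 7 passed at E14.5. The part of Pecam1-expressing cells in the members' values was not tested either.

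Ino80, the motor of its complex and the disrupted gene (chromosome 2, 119373042 to 119477687), was read from at least 1498 counts in each library. At E13.5, WT replicates 1, 4 and 2 held 36.6, 33.8 and 30.7 CPM of Ino80, and KO replicates 3, 5 and 7 held 29.6, 29.6 and 29.6. At E14.5, WT replicates 8, 7 and 7.2 held 33.9, 31.4 and 30.8 CPM, and KO replicates 2, 4 and 1 held 26.98, 29.5 and 31.9. The 3 KO hearts were lower than any WT heart at E13.5, and KO replicate 1 lay inside the WT range at E14.5. The averaged log2 fold change of Ino80 was -0.15 ± 0.06 (interval -0.28 to -0.03, edgeR adjusted p = 0.220), second lowest of the 43 after Smarca1. The count covers the whole gene, and the share of heart RNA that comes from the Tie2 lineage was not measured, so these values do not check the genotype labels.

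The other 11 subunits particular to INO80 gave log2 fold changes on both sides of 0: 4 of the 12 with Ino80 lay above 0 and 8 below, with a median of -0.06. Uchl5, a deubiquitinase bound to INO80 and to the proteasome, had the highest of all 43 values. Its level was 30.2, 31.9 and 30.9 CPM in WT and 36.5, 30.1 and 32.8 in KO hearts at E13.5, and 29.6, 26.5 and 32.8 in WT and 40.95, 33.5 and 29.4 in KO hearts at E14.5 (replicates in the order given for Ino80, as in all lists that follow). KO replicate 2 was the highest heart at E14.5, the groups overlapped at both stages, and the averaged log2 fold change was 0.16 ± 0.08 (edgeR adjusted p = 0.380). Yy1, the zinc finger protein that brings INO80 to DNA, was lower in every KO heart at E13.5 (-0.15 ± 0.05) and overlapped at E14.5 (0.01 ± 0.05). The difference between these effects was 0.17 ± 0.08 (edgeR adjusted p = 0.997, unadjusted 1 of 43 members above 0 with p under 0.05 in this comparison, 2.33%, all genes 2.32%, and 0 below, all genes 1.29%). This test of the change in KO effect from E13.5 to E14.5 called 0 members and 0 genes in all (0%), and 0 members with DESeq2. Ino80d, a metazoan subunit of unsettled function, lay at 59.6, 48.99 and 44.2 CPM in WT and 52.4, 48.8 and 41.9 in KO hearts at E13.5, and at 49.6, 57.5 and 50.5 and 49.6, 49.7 and 55.9 at E14.5. Its hearts were mixed at both stages (-0.06 ± 0.08 averaged, adjusted p = 0.767). Ino80b, Ino80c, Ino80e, Actr8, Nfrkb, Mcrs1 and Tfpt had averaged log2 fold changes between -0.08 (Mcrs1) and 0.07 (Nfrkb).

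Ruvbl1 and Ruvbl2, the AAA+ ATPases that form a ring shared by INO80, SRCAP and EP400, lay above WT in every KO heart at E13.5 (0.16 ± 0.07 and 0.13 ± 0.06, edgeR adjusted p = 0.458 and 0.492). At E14.5 the groups overlapped (0.02 ± 0.07 and 0.07 ± 0.06). Actl6a, the actin-related subunit shared by INO80, EP400 and SWI/SNF, was 0.05 ± 0.05 averaged. Together with Smarca5, the ring genes were the 3 members (6.98%) that lay higher in all KO than in all WT hearts of E13.5, as did 8.44% of all genes. Lower without overlap were 9 members (20.9%), against 11.2% of all genes: Ino80, Yy1, Vps72, Smarca2, Smarcc2, Smarcd1, Arid1b, Smarca1 and Chd3. At E14.5, Actr5, Smarcd3 and Pbrm1 were lower without overlap (6.98%, all genes 5.87%) and 0 were higher (all genes 6.81%). Smarcd3 is uncertain, since Chpf2 on the other strand overlaps 48.2% of its exon bases and took counts equal to 35.4% of its own. None of these separations came with an adjusted call.

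**Figure D2:**
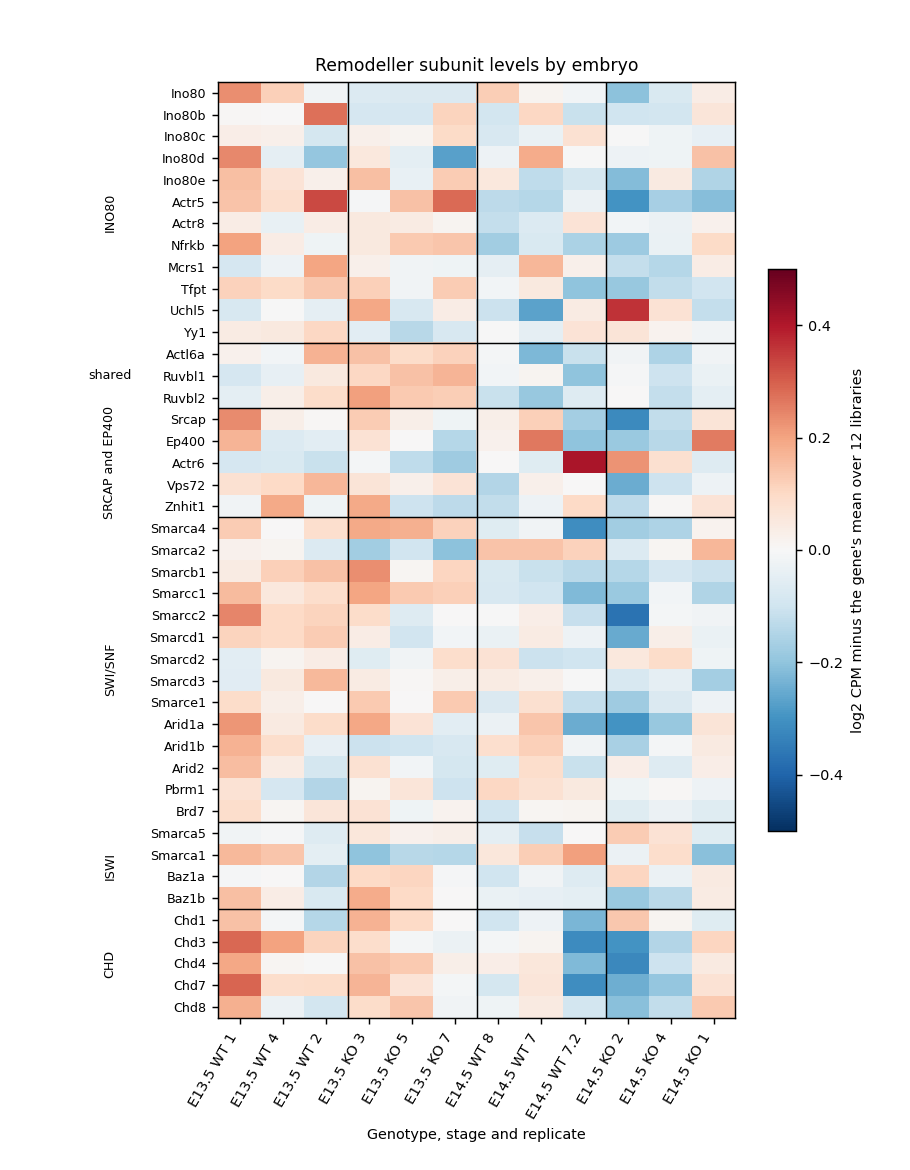
Log2 CPM of each subunit gene in each of the 12 hearts, minus the gene's mean over all 12 (colour scale from -0.5 to 0.5), with genes ordered by complex and lines between groups. At E13.5, 9 genes are lower (20.9%, all genes 11.2%) and 3 higher (6.98%, all genes 8.44%) in all KO than in all WT hearts. At E14.5, 3 are lower (6.98%, all genes 5.87%) and 0 higher (all genes 6.81%). The SWI/SNF genes Smarca4, Smarcb1 and Smarcc1 are lighter or bluer at E14.5 than at E13.5.

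Srcap, the motor that swaps H2A for H2A.Z, and Ep400, the motor of the related TIP60 complex, varied among hearts of a group. Srcap lay at 167, 144 and 142 CPM in WT and 155, 144 and 139 in KO hearts at E13.5, and at 144, 154 and 126 and 113, 129.7 and 148 at E14.5. Ep400 lay at 76.3, 64.6 and 65.3 and 71.4, 67.9 and 61.4 CPM at E13.5, and at 68.8, 81.4 and 58.9 and 59.6, 61.6 and 81.1 at E14.5. For both motors the groups overlapped at both stages, with averaged log2 fold changes of -0.08 ± 0.07 and -0.04 ± 0.09 (edgeR adjusted p = 0.636 and 0.866). All 5 SRCAP and EP400 genes lay below 0 in the averaged comparison, Actr6, Vps72 and Znhit1 included, with a median of -0.04. Znhit1 shares 28.4% of its exon bases with Plod3 on the other strand, and how the counting treated strand was not stated.

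The SWI/SNF genes gave no call between genotypes. Of the 14 genes, 4 lay above 0 and 10 below, with a median of -0.03. The alternative motors lay on different sides: Smarca4 (BRG1) at 0.06 ± 0.06 and Smarca2 (BRM) at -0.12 ± 0.05 (interval -0.22 to -0.02, edgeR adjusted p = 0.247). Arid1b, the DNA-binding subunit that alternates with Arid1a in BAF, was the third lowest of the 43. It held 68.6, 64.6 and 59.1 CPM in WT and 56.3, 56.7 and 57.5 in KO hearts at E13.5, and 64.4, 65.995 and 60.1 and 54.3, 60.4 and 62.6 at E14.5. Its KO hearts were all below WT at E13.5, and 2 of 3 KO hearts lay inside the WT range at E14.5 (-0.14 ± 0.05 averaged, adjusted p = 0.210). Values nearer 0 were those of Smarcb1, Smarcc1, Smarcd2, Smarce1, Arid1a, Arid2, Pbrm1, Brd7 and Smarcd3, between -0.07 (Smarcd3) and 0.04 (Smarcd2), and Smarcc2 and Smarcd1 lay at -0.12 ± 0.06 and -0.10 ± 0.05.

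Among the ISWI genes, the lowest averaged value of the set was that of Smarca1 (SNF2L, chromosome X, 47809368 to 47892974), one of the alternative ISWI motors. Smarca1 lay at 70.2, 69.1 and 60.5 CPM in WT and 54.5, 56.9 and 56.9 in KO hearts at E13.5. At E14.5 it lay at 65.2, 68.2 and 72.3 CPM in WT and 61.4, 66.6 and 54.2 in KO hearts. KO hearts were lower without overlap at E13.5, whereas at E14.5 KO replicate 4 exceeded WT replicate 8. The averaged log2 fold change was -0.21 ± 0.06 (interval -0.33 to -0.09), which did not pass in edgeR (adjusted p = 0.0893, rank 569 of 20691 by p). It passed in DESeq2 (0.0291) and in edgeR without KO replicate 4 of E14.5 (0.0400), and was 0.101 with Y-linked expression as a covariate. Smarca5 (SNF2H), the other motor, lay at 94.6, 95.4 and 91.6 CPM in WT and 99.6, 97.04 and 97.6 in KO hearts at E13.5, and at 92.6, 88.5 and 95.8 and 105, 101 and 91.7 at E14.5. KO hearts were above WT at E13.5 and overlapped with WT at E14.5 (0.08 ± 0.04 averaged, adjusted p = 0.384), and the value is uncertain because the pseudogene Smarca5-ps took counts equal to 35.1% of those of Smarca5. Baz1a (ACF1), the partner of ISWI motors in nucleosome spacing, was the third highest of the 43 at 0.11 ± 0.05 (0.323). Its hearts held 28.8, 29.002 and 26.1 CPM in WT and 31.04, 31.2 and 28.9 in KO at E13.5, with 1 KO heart inside the WT range, and 27.02, 28.6 and 27.7 and 31.2, 28.4 and 29.8 at E14.5, again with 1 KO heart inside it. Baz1b (WSTF) lay at 0.01 ± 0.05.

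The 5 CHD motors gave no call between genotypes, with 2 above 0, 3 below and a median of -0.02. Chd1, which binds methylated H3K4 at active genes, was second highest of the 43. It lay at 64.9, 58.1 and 53.1 CPM in WT and 66.1, 62.7 and 58.6 in KO hearts at E13.5, and at 54.7, 57.5 and 50.002 and 64.4, 59.2 and 56.2 at E14.5, with overlap at both stages (0.12 ± 0.06 averaged, edgeR adjusted p = 0.380). Chd3, the lesser of the NuRD motors, lay at 115, 108 and 102 CPM in WT and 99.8, 93.3 and 92.1 in KO hearts at E13.5, where KO was lower in every heart. At E14.5 the Chd3 levels of 93.2, 94.8 and 75.5 CPM in WT and 76.3, 84.9 and 101 in KO overlapped. Chd4 lay at 378, 332 and 329 CPM in WT and 366, 361 and 337 in KO hearts at E13.5, and at 338, 343 and 283 and 264, 307 and 340.4 at E14.5. It overlapped at both stages (-0.02 ± 0.07 averaged, adjusted p = 0.910). Chd8, a motor that binds beta-catenin, lay at 76.7, 66.4 and 63.6 and 72.2, 74.7 and 66.9 CPM at E13.5 and at 66.7, 69.8 and 63.7 and 58.6, 62.3 and 74.2 at E14.5, with overlap at both (0.00 ± 0.07, 0.982). The highest E14.5 heart of Chd3 and Chd8 was KO replicate 1 and the lowest of Chd4 KO replicate 2, hearts of different litters.

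**Figure D3:**
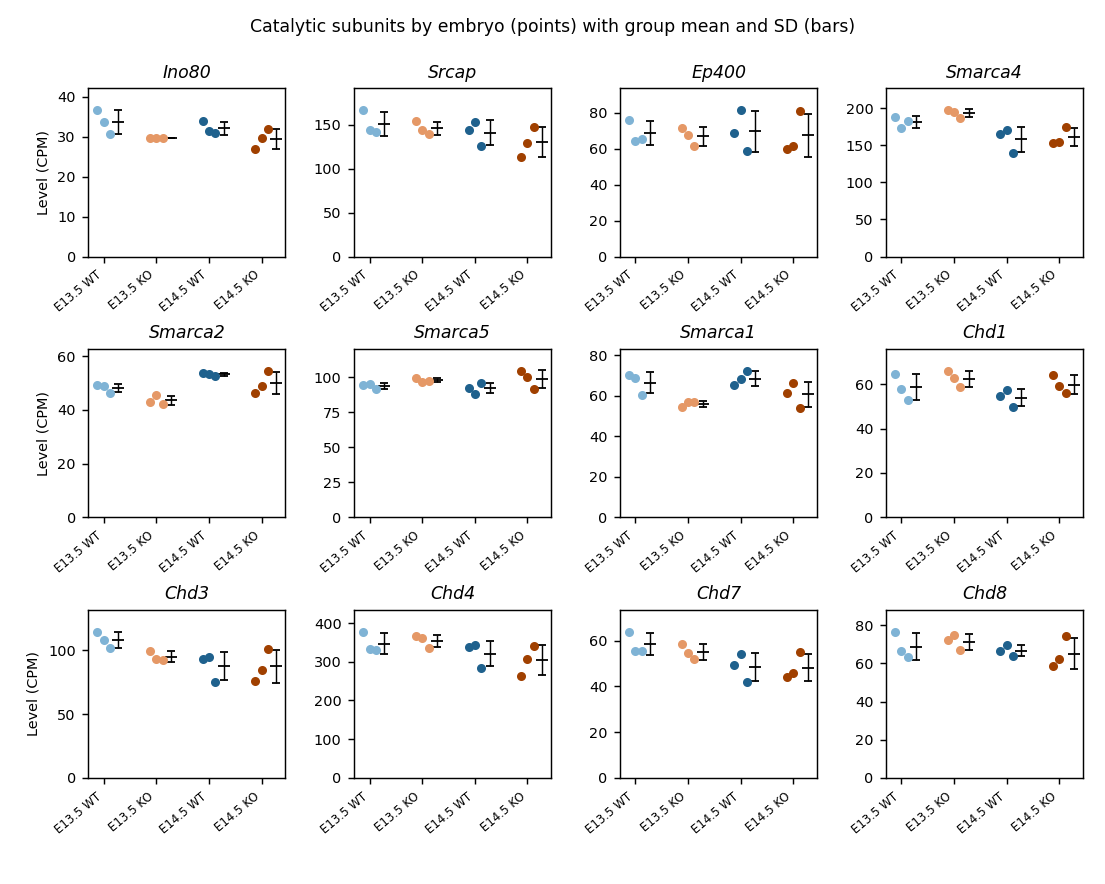
Level in CPM (axes from 0) of the 12 motor genes in the 4 groups, 1 point per heart with the group mean and SD of 3 as bars. Ino80, Smarca2, Smarca1 and Chd3 are lower in all 3 KO than in all 3 WT hearts at E13.5, as are 11.2% of all genes. Smarca5 is higher in all 3 KO hearts there, as are 8.44% of all genes. None of the 12 passed between genotypes in edgeR. Smarca4 and Chd7 have lower group means at E14.5 than at E13.5 in both genotypes.

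Between the stages, members called were mostly lower at E14.5. Averaged over the genotypes, 9 of 43 members passed in edgeR (20.9%), a share near that of all genes (17.2%). Of these, 8 were lower at E14.5 (18.6%, all genes 8.93%) and 1 was higher (2.33%, all genes 8.26%). The median log2 fold change of the members was -0.09 with 35 of 43 below 0, while the median of all genes was 0.00. Within WT, 0 members passed (all genes 4.04%; 1 member above 0 and 9 below at an unadjusted p under 0.05, 2.33% and 20.9%, all genes 11.1% and 11.6%, and 2 with DESeq2, which called 10.7% of all genes), and within KO 1 passed, Smarcc1 (2.33%, all genes 3.74%). At an unadjusted p under 0.05, 1 member lay above 0 (2.33%, all genes 10%) and 12 below (27.9%, all genes 10.1%) within KO, and 2 above (4.65%, all genes 15.7%) and 18 below (41.9%, all genes 16.6%) averaged over the genotypes. The 1 call in KO was kept in 2 of 12 fits with 1 library left out, those without KO replicate 4 or WT replicate 7.2 of E14.5. Over both genotypes, 3 members were lower in all 6 E14.5 than in all 6 E13.5 hearts (Actr5, Smarcb1 and Smarcc1, 6.98%, all genes 3.89%), and 0 were higher (all genes 3.32%). Separation of the stages within a genotype, given below for single genes, was not counted over all genes and does not mark out a gene. Tfpt, which did not pass, separated in both genotypes. The averaged count was 5 without KO replicate 3 or KO replicate 7 of E13.5. It was also 5 without the KO hearts lowest in macrophage markers at each stage (replicate 5 of E13.5 and replicate 2 of E14.5, hereafter the macrophage-poor KO pair). Shares of all genes called are not given for these fits, so these counts describe the fits and are not results about the members. The WT and KO stage comparisons and their average use the same libraries, and stage cannot be told apart from litter.

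The SWI/SNF core carried the clearest differences with stage. Smarcc1 (BAF155, chromosome 9, 110117708 to 110240178), a scaffold on which SWI/SNF assembles, lay at 212, 197 and 202 CPM in WT and 218, 208 and 206 in KO hearts at E13.5. At E14.5 it lay at 179.8, 177 and 163 in WT and 167, 188 and 171 in KO hearts. Every E14.5 heart was below every E13.5 heart. Smarcc1 fell by 0.25 ± 0.05 on the log2 scale (edgeR adjusted p = 0.00430), and by 0.23 ± 0.07 in WT (0.0625) and 0.26 ± 0.07 in KO (0.0447). Smarcb1 (SNF5, chromosome 10, 75896769 to 75921617), a core subunit that contacts the nucleosome's acidic patch, lay at 62.3, 65.7 and 66.95 CPM in WT and 71.1, 60.9 and 65.1 in KO hearts at E13.5. At E14.5 the Smarcb1 levels were 57.4, 55.95 and 55.004 in WT and 54.8, 57.02 and 56.1 in KO, again without overlap between the stages. Smarcb1 fell by 0.22 ± 0.04 (0.00610). These 2 genes kept their calls in all 12 fits with 1 library left out and in all 8 other fits.

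The motors of the same complex went in opposite directions with stage. Smarca4 (chromosome 9, 21616169 to 21704230) lay at 189, 173 and 183 CPM in WT and 197, 195 and 187 in KO hearts at E13.5, and at 165, 170.5 and 139 and 153, 155 and 175 at E14.5. Each genotype's E14.5 hearts lay below its own E13.5 hearts, and only E14.5 KO replicate 1 overlapped with the E13.5 range, that of WT. Smarca4 fell by 0.23 ± 0.06 (edgeR adjusted p = 0.0162), a call kept without any 1 library and lost without the macrophage-poor KO pair, where the log2 fold change was -0.21 (0.0695). Smarca2 (chromosome 19, 26605050 to 26778322) lay at 49.2, 48.9 and 46.3 CPM in WT and 42.95, 45.3 and 42.1 in KO hearts at E13.5, and at 53.6, 53.5 and 52.5 and 46.3, 48.8 and 54.4 at E14.5. Every E14.5 heart of a genotype was above all its E13.5 hearts, while E14.5 KO and E13.5 WT hearts overlapped. Smarca2 rose by 0.17 ± 0.05 (0.0250), the 1 member that rose. Its call was lost without WT replicate 2 (0.0517), KO replicate 3 (0.0550) or KO replicate 7 (0.0590) of E13.5, and without litter 3 (0.0735), with log2 fold changes of 0.14 to 0.16 in these fits. The remaining SWI/SNF genes did not pass, among them Smarcc2 (-0.16 ± 0.06), Arid1a (-0.18 ± 0.08) and Smarce1 (-0.13 ± 0.05), the last uncertain because the pseudogene Smarce1-ps1 took counts equal to 44.3% of its own.

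The promoters of these 4 SWI/SNF genes are shown because their transcripts moved with stage, 3 one way and 1 the other. Each is the 250 bases before the gene's RefSeq start on GRCm38.p6, read 5′ to 3′ on the gene's strand, with matches to the searched motifs in capitals. The Smarcc1 window is chr9:110131774-110132023 on the plus strand, Smarcb1 chr10:75921615-75921864 on the minus strand, Smarca4 chr9:21615919-21616168 on the plus strand and Smarca2 chr19:26604910-26605159 on the plus strand. RefSeq starts need not coincide with the outer ends of the GENCODE genes given above.
Smarcc1: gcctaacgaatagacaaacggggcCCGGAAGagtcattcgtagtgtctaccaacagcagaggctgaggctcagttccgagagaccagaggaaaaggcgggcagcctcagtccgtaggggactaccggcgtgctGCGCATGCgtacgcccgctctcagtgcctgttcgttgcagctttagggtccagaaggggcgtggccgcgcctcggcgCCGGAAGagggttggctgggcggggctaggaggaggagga
Smarcb1: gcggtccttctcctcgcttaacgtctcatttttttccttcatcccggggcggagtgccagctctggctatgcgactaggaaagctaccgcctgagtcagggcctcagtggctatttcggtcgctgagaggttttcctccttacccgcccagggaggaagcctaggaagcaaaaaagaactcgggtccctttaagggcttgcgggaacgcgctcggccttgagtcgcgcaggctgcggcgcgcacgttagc
Smarca4: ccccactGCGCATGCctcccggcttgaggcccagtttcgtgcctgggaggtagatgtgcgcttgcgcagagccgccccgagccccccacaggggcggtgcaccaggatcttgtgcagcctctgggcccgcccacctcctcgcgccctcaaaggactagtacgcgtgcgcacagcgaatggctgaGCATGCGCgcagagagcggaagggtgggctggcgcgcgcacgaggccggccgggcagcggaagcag
Smarca2: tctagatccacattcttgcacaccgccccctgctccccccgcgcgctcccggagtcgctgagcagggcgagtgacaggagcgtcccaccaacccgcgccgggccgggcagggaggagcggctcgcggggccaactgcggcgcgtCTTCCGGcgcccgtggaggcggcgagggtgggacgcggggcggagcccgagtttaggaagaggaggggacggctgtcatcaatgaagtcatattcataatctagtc

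The motifs searched on both strands were TTTCCCGC and TTTGGCGC (E2F), AAGATGGC (YY1), CCAAT (NF-Y), CCGGAAG (ETS) and GCATGCGC (the core of the NRF1 motif, added after the windows had been read). Smarcc1 held the ETS letters at 226 and 40 bases before its start and the NRF1 core on the reverse strand at 117. Smarca4 held the NRF1 core at 243 bases on the reverse strand and at 66 bases on the forward strand. Smarca2 held the ETS letters on the reverse strand at 106 bases, and Smarcb1 held none of the letters in this window. Of the 43 members, 32 had a window (37 windows in all). ETS letters stood in 21.6% of the members' windows against 6.91% of 32851 mouse windows, and the first E2F motif in 8.11% against 0.895%. The NRF1 core stood in 8.11% against 2.26%. That motif was added after these windows had been read, so its share is not an independent comparison. YY1 letters stood in 5.41% against 1.56% (Ino80b and Znhit1), CCAAT in 29.7% against 33.8%, and the second E2F motif in 0% against 0.417%. Members' windows were richer in G and C (median 63.6% against 52.4%), so matches to GC-rich letters are not compared like with like. A match describes letters and is not evidence of binding.

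Of the 12 genes particular to INO80, 1 passed as lower with stage (Actr5). Of the 3 shared by several complexes, 2 did (Ruvbl2 and Actl6a). Over all genes 8.93% passed as lower, and counts this small are not results about a complex. Actr5 (ARP5, chromosome 2, 158624888 to 158639211), the actin-related protein through which INO80 grips the nucleosome, was the lowest per length and the one that fell most. It was read from as few as 371 counts in 1 library. Actr5 lay at 9.57, 9.20 and 10.9 CPM in WT and 8.64, 9.60 and 10.5 in KO hearts at E13.5, and at 7.92, 7.86 and 8.49 and 7.06, 7.72 and 7.48 at E14.5, with every E14.5 heart below every E13.5 heart. Actr5 fell by 0.33 ± 0.07 on the log2 scale (edgeR adjusted p = 0.00998). Ruvbl2 (chromosome 7, 45421760 to 45438096) held 52.03, 54.9 and 57.4 CPM in WT and 62.05, 58.95 and 58.6 in KO hearts at E13.5, and 49.9, 47.3 and 51.6 and 53.9, 49.6 and 52.1 at E14.5. Each genotype separated by stage, whereas E14.5 KO replicates 2 and 1 reached the E13.5 WT range. Ruvbl2 fell by 0.17 ± 0.04 (0.0160). Both calls were kept in all 12 fits with 1 library left out and lost without litter 2 (log2 fold change -0.29 and adjusted p = 0.111 for Actr5, -0.14 and 0.137 for Ruvbl2), which leaves 1 WT and 1 KO heart at E14.5.

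Actl6a (BAF53A, chromosome 3, 32706298 to 32726973) fell by 0.18 ± 0.05 (0.0320), from 47.8, 46.6 and 53.1 CPM in WT and 52.2, 50.1 and 51.000 in KO hearts at E13.5 to 46.7, 40.3 and 43.5 and 46.6, 42.3 and 46.5 at E14.5. Its WT hearts touched at 1 pair of embryos, WT replicate 8 at E14.5 and WT replicate 4 at E13.5. The Actl6a call was lost without WT replicate 2 (0.0597) or KO replicates 3 (0.0631), 5 (0.0534) or 7 (0.0650) of E13.5. It was also lost without WT replicate 7 (0.0647), WT replicate 7.2 (0.0583) or KO replicate 4 (0.0554) of E14.5, without litter 2 (0.143) or litter 3 (0.0574), and without the macrophage-poor KO pair (0.0620). The log2 fold change was -0.16 without litter 2, and -0.20 both without litter 3 and without that pair. On the other strand, Mrpl47 overlaps 11.6% of the exon bases of Actl6a and Gys1 overlaps 10.7% of those of Ruvbl2. Mrpl47 took counts equal to 64.9% of those of Actl6a, and Gys1 counts equal to 275% of those of Ruvbl2. These neighbours had log2 fold changes with stage of 0.16 and 0.11 (edgeR adjusted p = 0.0998 and 0.253). Actl6a and Ruvbl2 are therefore uncertain, and the part of shared reads in their values was not tested. Ruvbl1 (-0.11 ± 0.05), Tfpt (-0.19 ± 0.07), Nfrkb (-0.18 ± 0.06) and Ino80e (-0.16 ± 0.06) did not pass. Ino80 lay at -0.04 ± 0.06 (0.655) and Ino80d at 0.08 ± 0.08, the third highest of the set.

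Vps72 (YL1, chromosome 3, 95111022 to 95123051), the H2A.Z chaperone subunit of SRCAP and EP400, lay at 44.6, 45.3 and 47.5 CPM in WT and 44.3, 43.04 and 44.4 in KO hearts at E13.5, and at 38.2, 43.1 and 42.4 and 35.6, 39.3 and 41.6 at E14.5. Each genotype separated by stage, as for Tfpt, which did not pass. Vps72 fell by 0.16 ± 0.05 (edgeR adjusted p = 0.0406) and kept its call without WT replicate 7, KO replicate 4 or KO replicate 1 of E14.5. It lost it without any other 1 library, with adjusted p from 0.0534 (without E14.5 WT replicate 7.2) to 0.0864 (without E14.5 WT replicate 8). It was also lost with Y-linked expression as a covariate (0.0566), without the filter on low counts (0.0502), without litter 2 (log2 fold change -0.09, adjusted p = 0.297) and without the macrophage-poor KO pair (-0.14, 0.106). Actr6 (ARP6), its SRCAP partner, had the highest stage value of the set without passing (0.21 ± 0.08, 0.101), and passed as higher with litter 2 left out (0.27, 0.0336). Levels of Actr6 were 14.8, 14.8 and 14.52 CPM in WT and 15.6, 14.4 and 13.8 in KO hearts at E13.5, and 15.7, 15.03 and 20.8 and 18.3, 16.5 and 15.004 at E14.5, where WT replicate 7.2 stood above all other hearts. Srcap (-0.13 ± 0.07), Ep400 (0.02 ± 0.09) and Znhit1 (-0.04 ± 0.07) did not pass.

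All 5 CHD motors lay below 0 with stage (median -0.17) and 1 passed as lower, as did 8.93% of all genes. Chd7 (chromosome 4, 8690406 to 8867659), the motor gene mutated in CHARGE syndrome, lay at 63.9, 55.5 and 55.6 CPM in WT and 58.6, 54.6 and 51.9 in KO hearts at E13.5. At E14.5 it lay at 49.1, 54.3 and 42.03 in WT and 44.03, 45.6 and 54.9 in KO hearts, with overlap in KO through KO replicate 1. Chd7 fell by 0.23 ± 0.07 (edgeR adjusted p = 0.0484), a call kept only without WT replicate 7 or KO replicate 1 of E14.5, among fits with 1 library left out. Without any other 1 library its adjusted p ran from 0.0529 (without E13.5 WT replicate 2) to 0.113 (without E13.5 WT replicate 1). The call was also lost with RLE size factors (0.0503), without robust shrinkage (0.0518), without litter 2 (log2 fold change -0.24, adjusted p = 0.0637) and without the macrophage-poor KO pair (-0.20, 0.148). Chd3 (-0.21 ± 0.07, 0.0677), Chd4 (-0.17 ± 0.07, 0.124), Chd1 (-0.09 ± 0.06) and Chd8 (-0.09 ± 0.07) did not pass. Chd3 passed as lower with DESeq2 (adjusted p = 0.0471), with Y-linked expression as a covariate in edgeR (0.0469), and without litter 2 (0.0467), litter 3 (0.0191) or KO replicate 1 of E14.5 (0.0183). Of the ISWI genes 0 passed with edgeR (1 lower at an unadjusted p under 0.05, Baz1b at -0.13 ± 0.05), and Smarca5 (-0.01 ± 0.04), Baz1a (-0.02 ± 0.05) and Smarca1 (0.08 ± 0.06) lay near 0.

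**Figure D4:**
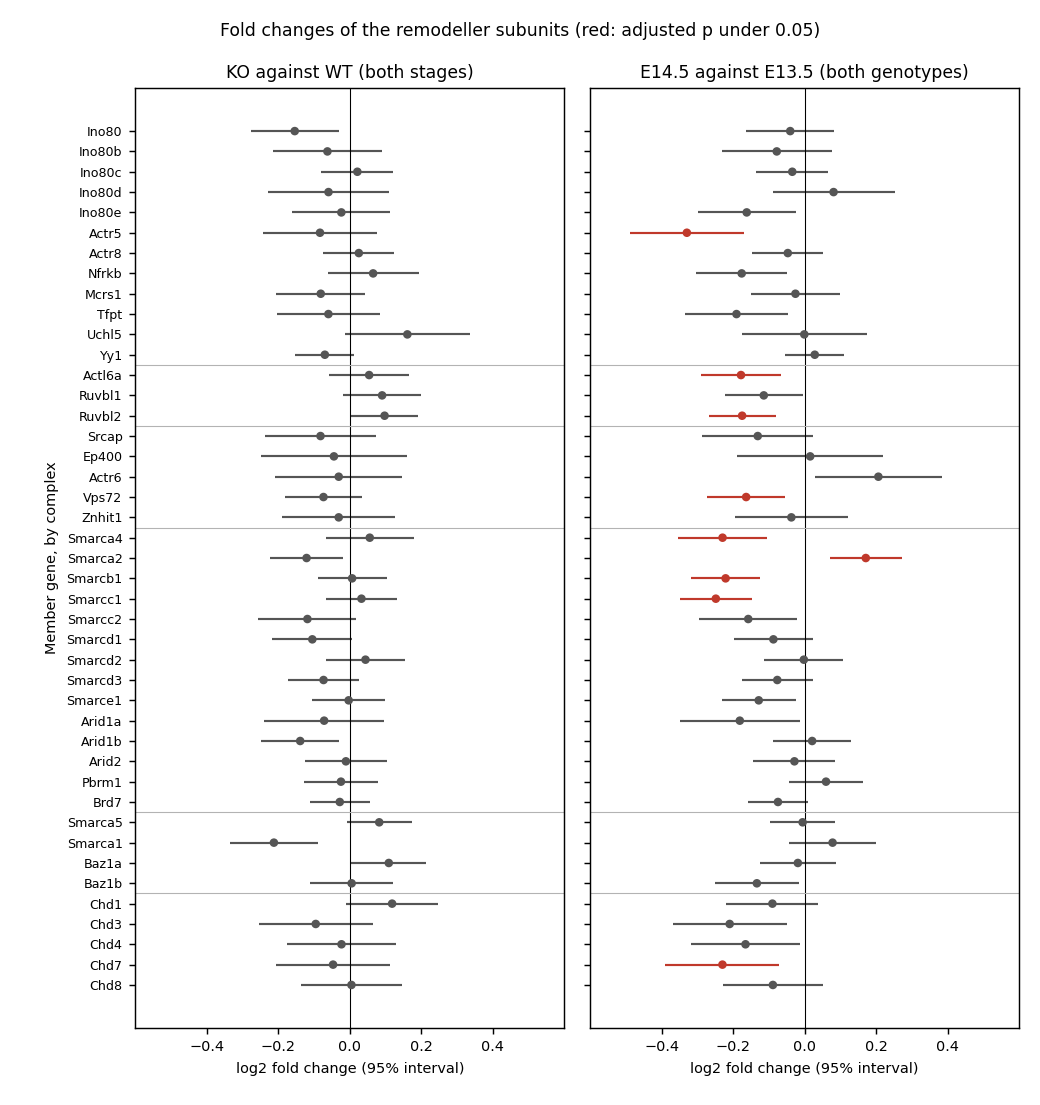
Log2 fold change with its 95% interval for all 43 genes, KO against WT averaged over the stages (left) and E14.5 against E13.5 averaged over the genotypes (right), with genes past an adjusted p of 0.05 in red. None is red on the left, and 9 are red on the right, 8 of them below 0 and Smarca2 above.

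Markers of other cell types and of cycling differed with stage beside these genes. The summed level of 6 cycling markers was 1150 to 1164 CPM in WT hearts at E13.5 and 1037 to 1137 at E14.5, and 1143 to 1274 against 1056 to 1228 in KO hearts. Of these markers 5 of 6 lay below 0 and Mcm2, a subunit of the replicative helicase, fell by 0.27 ± 0.05 (edgeR adjusted p = 0.00283). Erythroid markers (6 of 6) summed to 4487 to 7964 CPM in WT hearts at E13.5 and 8719 to 14483 at E14.5, and to 2182 to 4947 against 2771 to 32243 in KO hearts, with 0 of 6 called (smallest adjusted p = 0.0646). Of 5 fibroblast markers, Dcn (0.56 ± 0.07, 0.000898) and Postn (0.26 ± 0.06, 0.0105) rose. Of 7 endothelial and endocardial markers, Pecam1 rose (0.26 ± 0.05, 0.00618) and Tie1 (-0.23 ± 0.06, 0.0218) and Npr3 (-0.29 ± 0.09, 0.0472) fell, averaged over the genotypes. Within a genotype, Pecam1 passed as higher in KO only (edgeR adjusted p = 0.0171) and Tie1 as lower in WT only (0.0345). The change in KO effect from E13.5 to E14.5 lay above 0 for all 7 (0.23 to 0.38 on the log2 scale), with 0 called. Of 5 epicardial markers, Upk3b fell (-0.41 ± 0.11, 0.0204). Of the cardiomyocyte, macrophage and liver markers 0 passed. The part of these markers in the stage differences of the remodeller genes was not tested.

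Because several subunits replace each other within a complex, the levels of such pairs were set against each other in each heart, as the log2 ratio of CPM per kb. These ratios were chosen with the levels above known and are descriptions. Smarca4 exceeded Smarca2 in every heart. The log2 ratio was 3.08, 2.96 and 3.12 in WT and 3.34, 3.25 and 3.29 in KO hearts at E13.5. At E14.5 it was 2.77, 2.81 and 2.55 in WT and 2.86, 2.80 and 2.82 in KO hearts. All 6 E14.5 hearts lay below all 6 E13.5 hearts, and at E13.5 KO hearts lay above WT hearts without overlap, whereas at E14.5 the genotypes overlapped. Group means ± SD were 3.05 ± 0.08 (WT) and 3.29 ± 0.05 (KO) at E13.5, and 2.71 ± 0.14 and 2.83 ± 0.03 at E14.5.

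Among all pairs computed, more than are described here, Smarca5 over Smarca1, the ISWI motors, was the pair that separated the genotypes at both stages. Its log2 ratio was 0.08, 0.12 and 0.25 in WT and 0.52, 0.42 and 0.43 in KO hearts at E13.5, and 0.16, 0.03 and 0.06 in WT and 0.42, 0.25 and 0.41 in KO hearts at E14.5. Every KO heart was above every WT heart of its stage, with the pseudogene counts of Smarca5 as a limit on the level. The ratio is not independent of levels already given. Smarca1 had the lowest averaged genotype value of the set, and Smarca5 lay above WT in every KO heart at E13.5. Smarcc1 over Smarcc2, the paired scaffolds, was near 0 in WT (0.06 ± 0.03 at E13.5 and 0.01 ± 0.03 at E14.5). In KO hearts it was 0.25 ± 0.05 at E13.5, without overlap with WT, and 0.13 ± 0.16 at E14.5, with overlap. Chd4 over Chd3, the NuRD motors, was 1.75 ± 0.05 in WT and 1.97 ± 0.05 in KO hearts at E13.5, without overlap. At E14.5 the order was turned, with 1.95 ± 0.03 in WT and 1.87 ± 0.05 in KO hearts, which overlapped. Arid1a over Arid1b (1.60 ± 0.09 in WT and 1.72 ± 0.14 in KO at E13.5) overlapped between the genotypes at both stages. The pairs computed but not described were Smarcd1 over Smarcd3, Smarcd1 over Smarcd2, Arid1a over Arid2, Baz1b over Baz1a, Ruvbl1 over Ruvbl2 and Chd8 over Chd7. None of the differences in these ratios was tested.

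**Figure D5:**
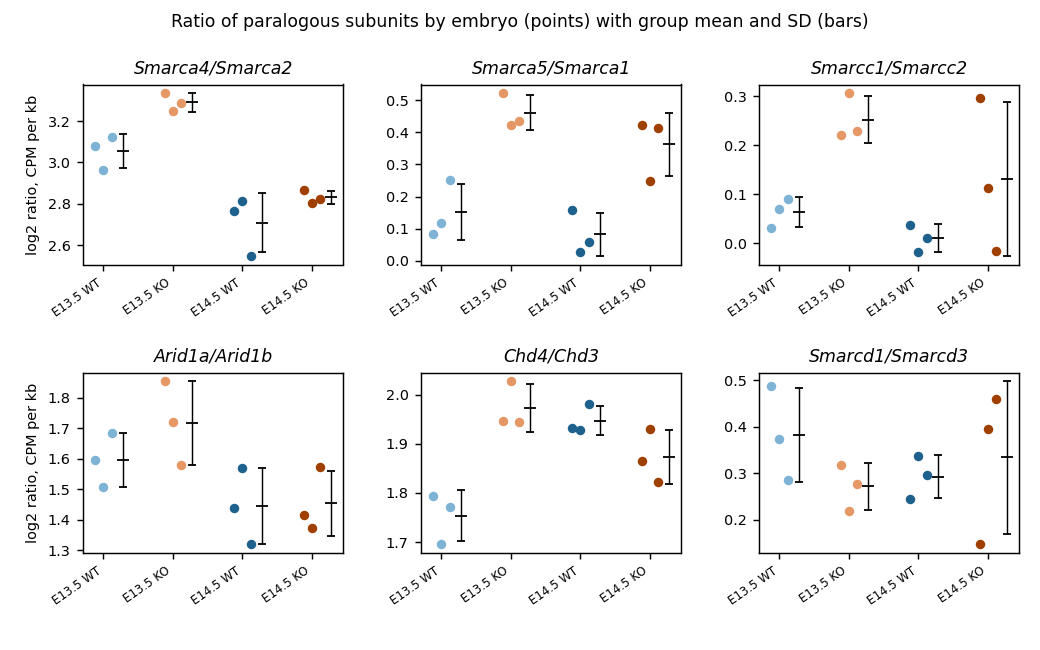
Log2 ratio of CPM per kb for 6 pairs of paralogous subunits in each heart (points), with group mean and SD of 3 as bars, on axes that do not start at 0. Smarca4 over Smarca2 is lower in all 6 E14.5 hearts than in all 6 E13.5 hearts, and Smarca5 over Smarca1 is higher in all KO than in all WT hearts of each stage.

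The other genes of these complexes were read from a list of 67 subunits and related motors outside the set, of which 64 were tested. Between genotypes 0 of 64 passed in edgeR averaged over the stages, with 1 above 0 (1.56%, all genes 7.38%) and 12 below (18.8%, all genes 7.34%) at an unadjusted p under 0.05 and a median log2 fold change of -0.04. Dpf3, a BAF subunit known from heart and muscle, had the smallest adjusted p (-0.24 ± 0.07, 0.109), followed by Cecr2, an ISWI partner (-0.33 ± 0.09, 0.110); both were named after their values were seen. With stage, 5 of 64 fell (7.81%, all genes 8.93%) and 0 rose (all genes 8.26%), shares below those of all genes. At an unadjusted p under 0.05, 14 lay below 0 (21.9%, all genes 16.6%) and 0 above (all genes 15.7%). Of the 64, 43 lay below 0, with a median log2 fold change of -0.04. The 5 that fell were Dmap1 (-0.21 ± 0.05, 0.0130) and Brd8 (-0.20 ± 0.06, 0.0266) of TIP60-EP400, and Mta1 (-0.17 ± 0.04, 0.0127), Gatad2a (-0.17 ± 0.04, 0.0134) and Mbd3 (-0.20 ± 0.06, 0.0302) of NuRD.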

How the data were processed

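Whole hearts of 12 mouse embryos were profiled by RNA-seq, from total RNA with a NEBNext Ultra kit per the labels. The values are the raw counts per gene symbol deposited by the authors, whole numbers with no normalization. Per the submitters' processing notes, STAR 2.5.3a, featureCounts, DESeq2 and DESeq were used with GRCm38, listed with no role or order. The strand setting, the handling of multi-mapping reads and the annotation release were not stated in these sources. Genes with near-identical copies or overlapping neighbours can therefore hold reads of both. Groups came from the titles of the libraries.

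In R 4.3.3, edgeR 4.0.16 filtered genes with filterByExpr on the 4 groups (20691 of 45664 left), scaled libraries by TMM and fitted a robust quasi-likelihood model with 1 coefficient for each group to the 12 libraries. Residual degrees of freedom were 8, and the biological coefficient of variation shared by all genes was 17.1%. P-values of two-sided F-tests were Benjamini-Hochberg adjusted across the genes tested. Fold changes are given as log2 ± SE, the absolute value divided by the square root of F, and intervals are at the 95% level. P-values measure the spread between embryos. Levels are TMM-scaled CPM, and CPM per kb uses the union of all exons of GENCODE M21. The test was checked on simulated data.

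Values in every embryo were given for the 12 motor genes, for members called in any of 7 comparisons, and for the 3 highest and 3 lowest log2 fold changes in the averaged genotype and stage comparisons. Members, lists and rules were chosen with earlier results of these data known. Alternatives were DESeq2 1.42.0, RLE size factors, no low-count filter, litter as a block, Y-linked expression as a covariate, only the libraries compared, leaving out litter 3, the pair of KO hearts poorest in macrophage markers (replicate 5 of E13.5 and replicate 2 of E14.5), or each library in turn. Leaving out litter 2 and non-robust shrinkage were added after seeing the data. Litters pair embryos per the labels. At E14.5 residuals of WT and KO embryos, correlated over genes, averaged 0.00399 for the 5 pairs that share a litter and -0.00501 for the 4 that do not. Promoter windows are from RefSeq (GRCm38.p6).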

Additional observations from a re-analysis of the deposited data

How the results depend on the processing

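Between genotypes, the count of members called was 0 at E13.5, at E14.5 and for the difference between the stages under every alternative run. Averaged over the stages it was 1 with DESeq2 and 0 to 1 with each library left out in turn. With litter as a block, 0 members were called in all 4 genotype comparisons, so no call changed. The block was a single term that set litter 3 apart from litter 2 at E14.5. All E13.5 embryos shared a litter, so the block could not adjust the comparison at E13.5. For the stage comparisons the block was not run. No litter holds both stages, so a block would not separate stage from litter. The stage count within WT was 2 with DESeq2, 5 with litter 2 left out and 0 to 1 with each library left out in turn. Within KO it was 5 with DESeq2, and 0 without the low-count filter, with Y-linked expression as a covariate, with only the libraries compared, with litter 2 left out, and with the macrophage-poor KO pair left out, against 0 to 2 with each library left out in turn. Averaged over the genotypes it was 5 with that KO pair left out and 5 to 13 with each library left out in turn. The causes were not tested. The share of all genes called also differed between edgeR and DESeq2, and shares are not given here for the other fits. These counts therefore describe how calls depend on the fit and are not results about the members. With litter 3 left out, 3 members near 0 in the averaged genotype comparison changed sign (Actr6 0.09, Smarca4 -0.02 and Chd8 -0.06). Each member had at least 371 counts in every library. Groups held 3 embryos each, and stage cannot be told apart from litter. The share of the transcripts that comes from endothelium was not measured.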
